A study of Mus musculus with 12 samples.

Results

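The genes described here are 42 mouse genes that mark the 3 main kinds of liver cell other than hepatocytes. They are 15 markers of Kupffer cells, 15 of liver endothelial cells and 12 of hepatic stellate cells, taken from a list of symbols and read from 55414 gene identifiers in all. Each symbol matched exactly 1 row. Their counts come from RNA sequencing of primary hepatocytes isolated from mouse liver, 12 libraries in all, and serve here as a measure of how much RNA of other liver cells each library held. Per the labels, 6 libraries were wild type (WT) and 6 were Hnf4a KO. Hnf4a encodes a nuclear receptor that maintains the hepatocyte programme. Each genotype received DMSO as vehicle or MJ041, a compound that the series title calls a candidate ligand, with 3 libraries in each of the 4 groups. Strain, age, the way Hnf4a was deleted, the dose and the time of treatment were not given in the sources used here, nor was it said whether replicates came from separate animals. The p-values therefore measure the spread between these libraries, which may be technical.

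Kupffer cells are the resident macrophages of the liver. They sit in the sinusoids, take up particles and dying cells, and make complement C1q, lysosomal enzymes and pattern-recognition receptors. Liver sinusoidal endothelial cells form a wall with open pores and carry scavenger receptors and receptors for vascular growth factors. Stellate cells lie between that wall and the hepatocytes, store vitamin A when quiescent and are a main source of matrix after injury. All 3 remain in part in a hepatocyte preparation, so their markers are commonly read as a sign of its purity. Some of these genes are also transcribed by other cells, and in bulk RNA fewer cells of a type and less RNA per cell cannot be told apart.

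The promoters of 4 Kupffer markers are shown first because these genes carry the contrast described below: C1qb and C1qc varied together with most of their class, whereas Cd68 and Mpeg1 did not follow it throughout. Each run is the 250 bases before the transcription start in RefSeq on the mouse build GRCm38.p6, on the strand of the gene. Capitals mark GAGGAA or its reverse complement, a core of the sites bound by PU.1, the ETS factor of macrophages. The runs lie at chr4:136886201-136886450, chr4:136892915-136893164 and chr11:69666171-69666420 on the minus strand and at chr19:12460520-12460769 on the plus strand.
C1qb: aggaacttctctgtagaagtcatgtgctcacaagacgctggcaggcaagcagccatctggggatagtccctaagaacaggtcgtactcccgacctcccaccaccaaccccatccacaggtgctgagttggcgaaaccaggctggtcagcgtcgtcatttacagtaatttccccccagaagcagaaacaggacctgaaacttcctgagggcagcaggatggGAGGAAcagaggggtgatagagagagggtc
C1qc: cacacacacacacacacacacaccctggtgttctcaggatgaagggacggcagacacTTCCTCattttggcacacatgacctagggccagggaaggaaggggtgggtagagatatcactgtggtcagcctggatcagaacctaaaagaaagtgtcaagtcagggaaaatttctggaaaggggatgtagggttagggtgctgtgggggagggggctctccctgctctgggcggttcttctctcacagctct
Cd68: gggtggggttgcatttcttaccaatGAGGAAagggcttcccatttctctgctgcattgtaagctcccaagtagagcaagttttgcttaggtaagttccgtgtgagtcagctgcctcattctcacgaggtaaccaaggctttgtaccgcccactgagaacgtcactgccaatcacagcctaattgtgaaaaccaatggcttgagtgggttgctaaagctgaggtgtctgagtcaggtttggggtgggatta
Mpeg1: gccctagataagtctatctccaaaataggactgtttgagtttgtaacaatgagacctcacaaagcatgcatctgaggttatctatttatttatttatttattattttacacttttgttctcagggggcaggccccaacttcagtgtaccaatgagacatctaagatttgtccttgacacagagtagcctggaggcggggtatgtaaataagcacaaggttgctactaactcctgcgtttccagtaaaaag
The C1qb and Cd68 windows each held 1 match on the strand of the gene, the C1qc window held 1 on the other strand, and the Mpeg1 window held 0. Of the 15 Kupffer markers 11 had a promoter in the RefSeq table, and 7 of the 11 windows held the motif on either strand. The same was true of 3 of 15 windows of 11 endothelial markers, 1 of 10 windows of 10 stellate markers, and 7639 of 32851 windows over all genes (23.3%). A match of 6 letters is a description of the window and not evidence of a site. Adgre1, C1qa, Csf1r, Tyrobp, Cdh5, Dnase1l3, Lyve1, Pecam1, Dcn and Pdgfrb had no entry.

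The libraries held 16740761 to 17902832 assigned counts. A fit across all genes kept 14919 of them after a filter on low counts, and a gene was called when its adjusted p was below 0.05. Hnf4a itself stood at 114 to 137 counts per 1000000 counts (CPM) with vehicle in WT and at 62.3 to 67.8 CPM with vehicle in KO, and at 143 to 170.4 and 60.8 to 76.4 CPM with MJ041. These are counts over the whole gene, and the deleted part was not given in the sources used here. Of the hepatocyte's own defining genes, 12 (among them Alb, Ttr and Apoa1) together took 5.75 to 7.05% of counts in the WT libraries and 2.69 to 3.06% in the KO libraries. Genes of blood cells were near 0: 21 lymphocyte and neutrophil genes summed to at most 124 counts and 7 erythroid genes to at most 55 counts in any library.

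The 42 markers together were a small and uneven part of the RNA. Their summed share of counts was 0.0871, 0.0719 and 0.130% in WT vehicle replicates 1, 2 and 3, and 0.0450, 0.0537 and 0.0956% in WT MJ041 replicates 1, 2 and 3. In KO it was 0.0940, 0.118 and 0.106% with vehicle and 0.0991, 0.110 and 0.107% with MJ041. The lowest library, WT MJ041 replicate 1, lay 2.88-fold below the highest, WT vehicle replicate 3. The 95% Wilson intervals of these 2 shares, 0.0441 to 0.0461% and 0.128 to 0.131%, cover counting error only and do not touch. WT MJ041 replicates 1 and 2 had the lowest summed share of all 12 libraries, whereas WT MJ041 replicate 3 lay above WT vehicle replicates 1 and 2. Results that use the MJ041-treated WT group are therefore given with and without these libraries.

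All 3 classes showed that order at the low end, and the plot of summed shares by class shows them side by side. Kupffer markers summed to 0.0374, 0.0290 and 0.0637% with vehicle and 0.0192, 0.0250 and 0.0469% with MJ041 in WT. In KO the same sum stayed between 0.0523 and 0.0565% over all 6 libraries. Endothelial markers summed to 0.0325, 0.0289 and 0.0470% and 0.0173, 0.0192 and 0.0341% in WT and to between 0.0277 and 0.0414% in KO. Stellate markers were the smallest class, at 0.0173, 0.0140 and 0.0188% and 0.00854, 0.00949 and 0.0146% in WT, while the 6 KO libraries held 0.0139 to 0.0198%. The ratio of the Kupffer to the endothelial sum was 1.01 to 1.374 in WT and 1.365 to 1.90 in KO libraries. These ranges overlapped, and the ratio includes Mpeg1, which held much of the Kupffer sum in KO.

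**Figure D1:**
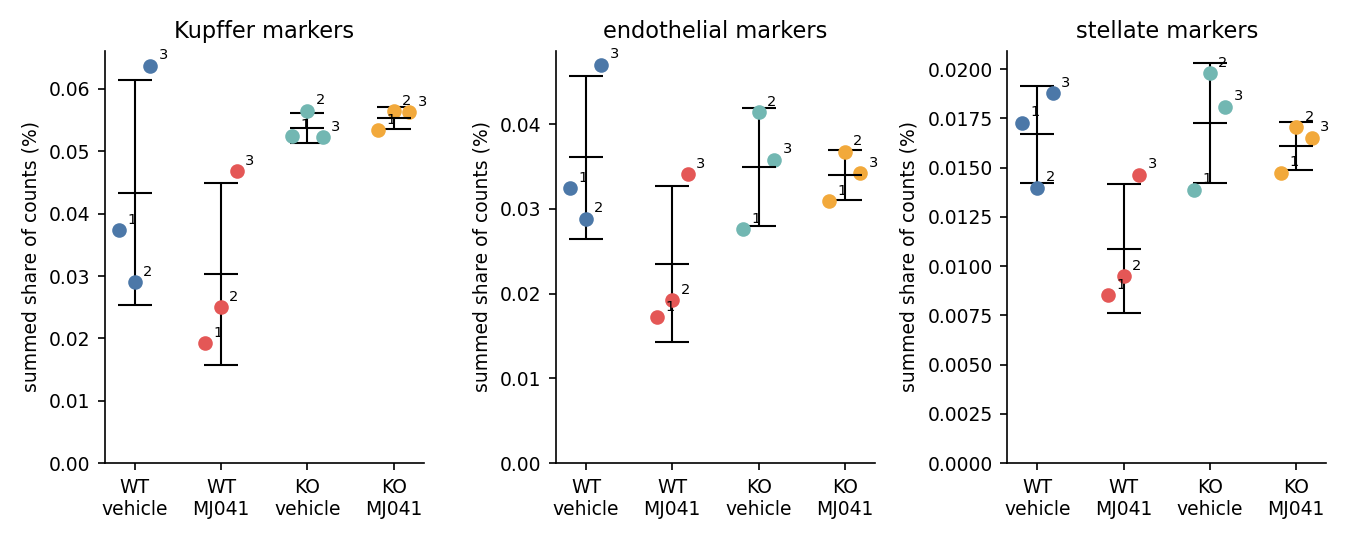
Summed share of counts (%) of the 15 Kupffer, 15 endothelial and 12 stellate markers in each library, numbered by replicate. Bars are the mean and SD of 3 libraries; in each panel WT MJ041 replicates 1 and 2 are the lowest points, and the KO libraries of the Kupffer panel lie between 0.0523 and 0.0565%.

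Single genes made up much of each sum, so the Kupffer sum is also given without Mpeg1. In KO Mpeg1 made up a large part of the steady Kupffer sum: without it the sum was 0.0218, 0.0283 and 0.0259% with vehicle and 0.0252, 0.0278 and 0.0276% with MJ041. In WT the sum without Mpeg1 was 0.0244, 0.0204 and 0.0455% with vehicle and 0.0142, 0.0185 and 0.0353% with MJ041, so that the KO libraries fell inside the WT range. That remainder still held Cd68, at 110 CPM in WT MJ041 replicate 1 and 131 CPM in WT vehicle replicate 3. The whole Kupffer sum there was 192 and 637 CPM, so it varied less than most of its genes. Over all 12 libraries the endothelial sum without Flt4 was 0.0118 to 0.0409%. The stellate sum without Ecm1 was 0.00517 to 0.0126%. That sum still held Reln, at a mean of 11.3 CPM in WT and 38.3 CPM in KO with vehicle. Mpeg1, which encodes perforin-2, a pore-forming protein of macrophages, held more counts than any other Kupffer marker, Ecm1, a secreted matrix protein, more than any other stellate marker, and Flt4, the receptor for VEGF-C also called VEGFR-3, more than any other endothelial marker. Levels between genes can be compared only per length, here as mean CPM over 12 libraries per kilobase of merged exon (RPKM). On that scale the Kupffer markers ranged from 0.369 for Timd4, a receptor for dying cells, to 70.5 for Cd68, a lysosomal glycoprotein, with a median of 8.10. The 15 endothelial markers ranged from 0.220 for Clec4g to 11.2 for Cdh5, the cadherin of endothelial junctions, with a median of 2.84. The 8 tested stellate markers ranged from 0.275 for Pdgfrb to 23.99 for Ecm1, with a median of 1.85.

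Of the stellate markers 4 were not tested because their counts fell below the filter. They were Lrat, the enzyme that stores retinol as ester, with 18 counts over all 12 libraries, Hand2, a transcription factor, with 37, Colec11, a collectin, with 74, and Des, the intermediate filament desmin, with 94. Lrat, Hand2 and Des are among the defining genes of quiescent stellate cells, and the highest level of any of the 3 in a library was 0.893 CPM, for Des in WT MJ041 replicate 3. The other 38 markers passed, namely all 15 Kupffer, all 15 endothelial and 8 stellate genes.

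Within WT the markers of a class varied together from library to library, with 5 exceptions. For each tested gene its log2 CPM was set against the mean of the other markers of its class over the 6 WT libraries, as a description. The median Pearson r was 0.984 for Kupffer, 0.962 for endothelial and 0.927 for stellate markers, and 13 of 15, 11 of 15 and 6 of 8 genes were above 0.9. Those with the lowest values were Cd68 (r = 0.071), Flt4 (0.293), Clec4g (0.34), Reln (-0.692) and Angptl6 (-0.725). These libraries share 2 treatments, so the correlations are not independent of the comparison of MJ041 with vehicle. Clec4g, a lectin of sinusoidal endothelium, had at most 0.920 CPM in any library, so counting error is a large part of its spread.

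The means of the classes also varied together. Over the 6 WT libraries r was 0.965 between Kupffer and endothelial means, 0.920 between endothelial and stellate means and 0.845 between Kupffer and stellate means. Over the 6 KO libraries the same values were 0.888, 0.987 and 0.911. Within the classes, however, the genes followed each other less closely in KO, with a median r of 0.684 for Kupffer, 0.857 for endothelial and 0.374 for stellate markers. Mpeg1 went from r = 0.932 in WT to -0.446 in KO, where its level hardly varied.

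The spread of a gene over libraries was wider in WT than in KO for 36 of the 38 markers, against 62.8% of all 14919 tested genes. The median range on the log2 CPM scale was 3.09 in WT and 0.646 in KO for Kupffer markers. It was 1.79 and 0.810 for endothelial markers and 1.70 and 0.796 for stellate markers, while all tested genes had 0.409 and 0.338. Cd5l, an apoptosis inhibitor secreted by macrophages, had the widest range in WT, 4.05, with 0.626 in KO. The 2 markers with a wider range in KO were Flt4 (0.190 in WT and 0.203 in KO) and Reln (1.35 and 1.83).

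**Figure D2:**
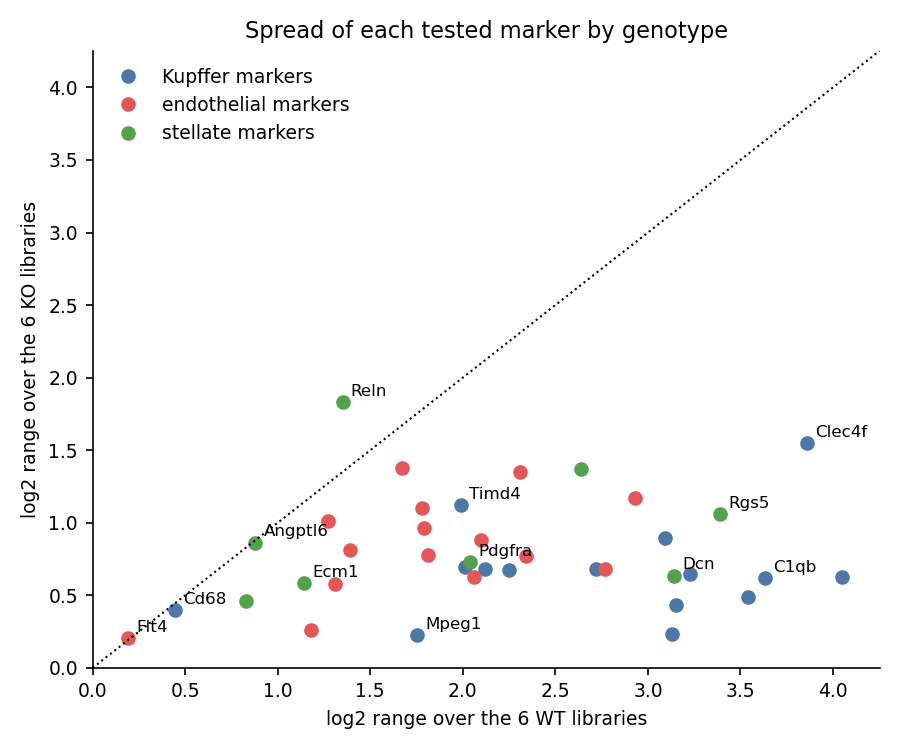
Range of log2 CPM (highest minus lowest library) of each of the 38 tested markers over the 6 WT libraries (x axis) and the 6 KO libraries (y axis), with the line of equal range. Points below the line vary more in WT; 36 of 38 do, while Flt4 and Reln lie above it.

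The heat map of the tested markers shows which libraries set that range. Of the 15 Kupffer markers 14 were lowest among WT libraries in MJ041 replicate 1, and 14 were highest in vehicle replicate 3. Of the 15 endothelial markers 10 were lowest in MJ041 replicate 1 and 3 in MJ041 replicate 2, and 14 were highest in vehicle replicate 3. Stellate markers were less uniform, with 4 of 8 lowest in MJ041 replicate 1, 2 lowest in MJ041 replicate 2 and 4 highest in vehicle replicate 3.

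**Figure D3:**
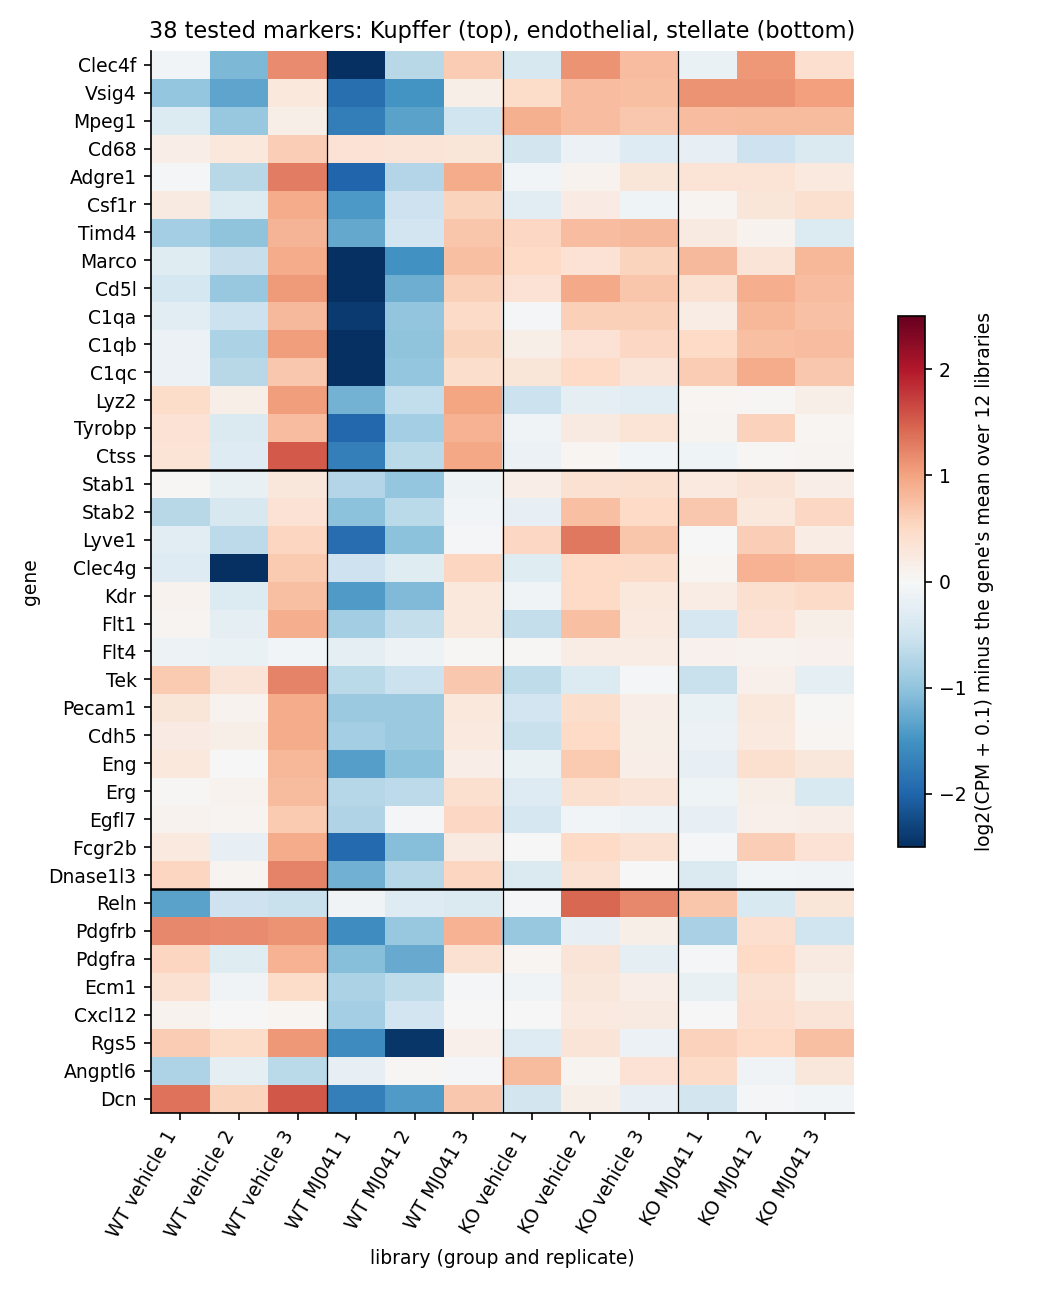
log2(CPM + 0.1) of each tested marker minus its own mean over 12 libraries, with Kupffer (top), endothelial and stellate (bottom) genes in rows and libraries in columns. WT MJ041 replicates 1 and 2 are blue for most rows and WT vehicle replicate 3 is red; the rows of Cd68, Flt4, Reln and Angptl6 follow another order.

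KO was first compared with WT under vehicle. Calls went in both directions, in each class. Of the 38 tested markers 9 were called, 5 higher and 4 lower in KO, while 54.5% of all tested genes were called, 27.5% higher and 26.9% lower. The median log2 fold change was 0.28 for Kupffer, -0.11 for endothelial and -0.27 for stellate markers, against 0.00 for all tested genes. These medians depended on single libraries: without WT vehicle replicate 2 they were -0.11, -0.35 and -0.44, and without WT vehicle replicate 3 they were 0.75, 0.24 and -0.16. Without KO vehicle replicate 2 they were 0.09, -0.34 and -0.57, so only the stellate median kept its sign in all 12 fits that left out 1 library, and no direction is read from the other 2. The libraries of the KO group lay wholly above those of WT for 5 markers, where 31.9% of tested genes did so, and wholly below for 7, where 31.0% did so. These 7 were Cd68, Tek, Pdgfrb and Dcn, which were called, and Lyz2, Egfl7 and Rgs5, which were not.

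Among Kupffer markers Mpeg1 and Vsig4 rose in KO and Cd68 fell. Mpeg1 (ENSMUSG00000046805) stood at 129.7, 85.9 and 182 CPM with vehicle and 49.9, 65.3 and 116 CPM with MJ041 in WT, and at 307, 282 and 263 CPM with vehicle and 282, 286 and 287 CPM with MJ041 in KO, in the order of replicates 1, 2 and 3 here and below. Every KO library lay above every WT library, and the log2 fold change with vehicle was 1.10 ± 0.25 (SE, adjusted p = 0.0027). Vsig4, the complement receptor CRIg that marks resident Kupffer cells, stood at 0.633, 0.476 and 1.62 CPM with vehicle and 0.290, 0.412 and 1.49 CPM with MJ041 in WT, and at 1.87, 2.37 and 2.33 CPM with vehicle and 3.05, 3.05 and 2.85 CPM with MJ041 in KO. Its groups did not overlap with vehicle either, and it rose by 1.25 ± 0.47 (SE, adjusted p = 0.037). Cd68 (ENSMUSG00000018774), in contrast, stood at 96.5, 103 and 131 CPM with vehicle and 110.0, 107 and 106 CPM with MJ041 in WT, and at 62.5, 77.9 and 69.1 CPM with vehicle and 74.4, 59.8 and 66.8 CPM with MJ041 in KO. All 6 KO libraries lay below all 6 WT libraries, and with vehicle Cd68 fell, with a log2 fold change of -0.66 ± 0.12 (SE, adjusted p = 0.00038). The calls on Mpeg1 and Cd68 passed with any 1 of the 12 libraries left out (adjusted p at most 0.017 and 0.0019), whereas the call on Vsig4 passed in 4 of 12 such fits (adjusted p 0.0075 to 0.15), those without WT vehicle replicate 3 or without 1 of the 3 WT MJ041 libraries. Vsig4 had 5 to 53 counts in a library, so its counting error is large.

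The C1q genes encode the 3 chains of the first complement component, which liver macrophages make. C1qb (ENSMUSG00000036905) stood at 9.44, 5.95 and 21.5 CPM with vehicle and 1.51, 5.13 and 15.4 CPM with MJ041 in WT, and at 11.6, 13.4 and 14.9 CPM with vehicle and 14.8, 17.5 and 17.8 CPM with MJ041 in KO. Its KO values fell inside the range of WT vehicle values, and its log2 fold change with vehicle was 0.11 ± 0.54 (SE, adjusted p = 0.88). C1qc (ENSMUSG00000036896) stood at 7.77, 5.29 and 13.8 CPM with vehicle and 1.27, 4.36 and 11.7 CPM with MJ041 in WT, and at 10.7, 12.3 and 10.9 CPM with vehicle and 13.4, 16.5 and 13.8 CPM with MJ041 in KO, with a log2 fold change of 0.32 ± 0.48 (SE, adjusted p = 0.59). The 3 chains kept nearly the same proportion in every library, C1qb taking 0.338 to 0.416 of their summed counts. Mpeg1 had 2.90 to 11.2 counts for each C1q count and Cd68 had 1.19 to 24.6. Cd68 was thus the Kupffer marker that departed furthest from C1q, with its highest value in WT MJ041 replicate 1.

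**Figure D4:**
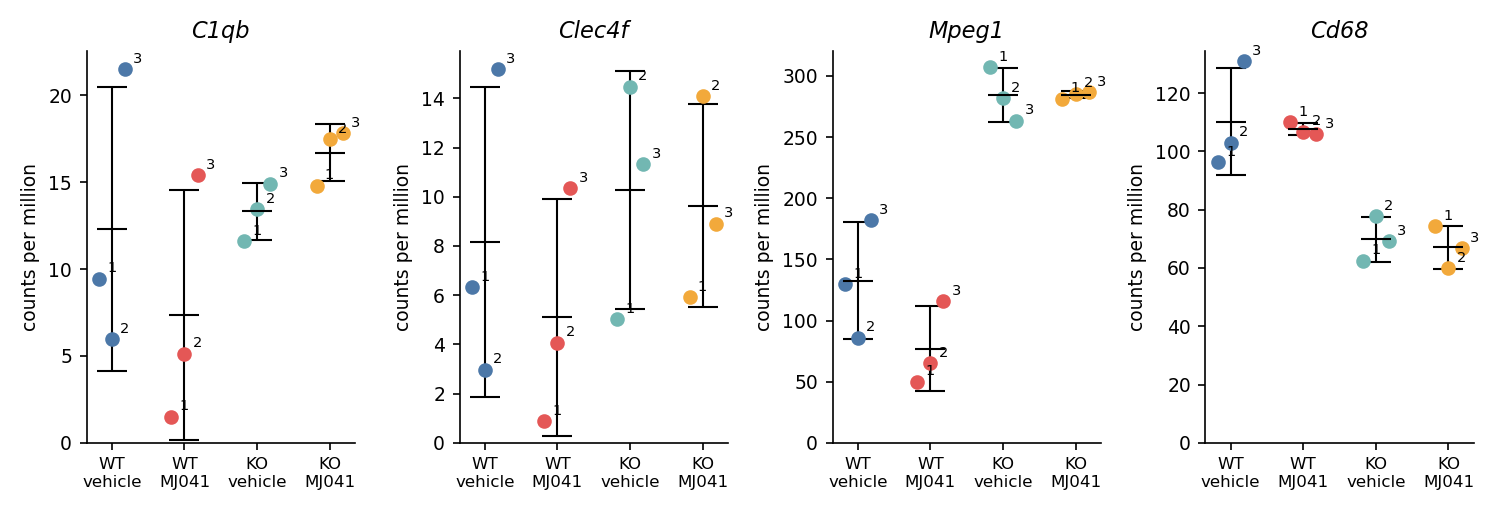
Expression level (CPM) of C1qb, Clec4f, Mpeg1 and Cd68 in each library, numbered by replicate, with the mean and SD of 3 libraries. C1qb and Clec4f overlap between genotypes with vehicle, every KO library is above every WT library for Mpeg1, and every KO library is below every WT library for Cd68.

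The other abundant Kupffer markers did not pass. Cd5l stood at 26.4, 18.6 and 74.6 CPM with vehicle and 4.05, 15.4 and 54.3 CPM with MJ041 in WT, and at 46.2, 69.3 and 58.1 CPM with vehicle and 46.5, 67.1 and 61.1 CPM with MJ041 in KO, and its log2 fold change with vehicle was 0.53 ± 0.61 (SE, adjusted p = 0.48). Ctss, the lysosomal protease cathepsin S, stood at 43.1, 27.2 and 98.5 CPM with vehicle and 10.3, 21.2 and 65.8 CPM with MJ041 in WT, and at 30.7, 35.1 and 32.3 CPM with vehicle and 31.6, 34.6 and 35.4 CPM with MJ041 in KO, with -0.79 ± 0.51 (SE, adjusted p = 0.21). Lyz2, lysozyme of the myeloid lineage, stood at 20.3, 16.4 and 30.8 CPM with vehicle and 6.49, 9.61 and 29.5 CPM with MJ041 in WT, and at 10.2, 12.4 and 12.1 CPM with vehicle and 15.4, 15.1 and 16.3 CPM with MJ041 in KO. Its KO libraries all lay below the WT libraries with vehicle, but at -0.96 ± 0.40 (SE, adjusted p = 0.055) it missed the threshold. The 7 further Kupffer markers that were not called and are not described above (Clec4f, Adgre1, Csf1r, Timd4, Marco, C1qa and Tyrobp) had log2 fold changes from -0.42 for Csf1r, the receptor for CSF1, to 0.85 for Timd4.

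Among endothelial markers Flt4 rose and Tek fell. Flt4 stood at 58.1, 56.5 and 61.00 CPM with vehicle and 54.6, 58.5 and 65.1 CPM with MJ041 in WT, and at 64.7, 72.5 and 72.2 CPM with vehicle and 68.9, 68.2 and 68.7 CPM with MJ041 in KO. It was the steadiest of all 38 markers within WT, and the rise with vehicle was small, 0.25 ± 0.06 (SE, adjusted p = 0.0039). That call was lost without KO vehicle replicate 3 or without WT vehicle replicate 2 (adjusted p at most 0.058). Tek, the angiopoietin receptor TIE2, stood at 7.72, 6.07 and 11.7 CPM with vehicle and 3.01, 3.30 and 7.86 CPM with MJ041 in WT, and at 3.09, 3.81 and 4.73 CPM with vehicle and 3.29, 5.29 and 4.10 CPM with MJ041 in KO. Its KO libraries lay below the WT libraries with vehicle, and its log2 fold change was -1.14 ± 0.34 (SE, adjusted p = 0.012). Without KO vehicle replicate 1 or WT vehicle replicate 3 the call on Tek did not pass (adjusted p at most 0.064).

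The abundant junction and surface genes of endothelium showed overlapping groups. Cdh5 stood at 50.7, 49.1 and 84.6 CPM with vehicle and 24.5, 23.2 and 51.95 CPM with MJ041 in WT, and at 29.9, 62.4 and 49.02 CPM with vehicle and 39.96, 52.3 and 45.6 CPM with MJ041 in KO, and its log2 fold change with vehicle was -0.39 ± 0.31 (SE, adjusted p = 0.31). Eng, the TGF-beta co-receptor endoglin, stood at 41.6, 34.7 and 61.7 CPM with vehicle and 13.2, 16.97 and 39.1 CPM with MJ041 in WT, and at 31.1, 54.5 and 39.2 CPM with vehicle and 30.2, 45.9 and 42.1 CPM with MJ041 in KO, with -0.15 ± 0.33 (SE, adjusted p = 0.73). Pecam1, the adhesion molecule CD31, stood at 29.7, 25.6 and 46.1 CPM with vehicle and 12.6, 12.6 and 29.2 CPM with MJ041 in WT, and at 17.3, 32.8 and 27.04 CPM with vehicle and 21.6, 29.2 and 24.8 CPM with MJ041 in KO, with -0.40 ± 0.31 (SE, adjusted p = 0.3). In none of these 3 genes did KO and WT libraries separate with vehicle. Lyve1, a hyaluronan receptor of sinusoidal and lymphatic endothelium, came closest to a rise, at 0.93 ± 0.38 (SE, adjusted p = 0.053). It stood at 6.51, 4.94 and 11.3 CPM with vehicle and 2.03, 3.77 and 7.62 CPM with MJ041 in WT, and at 11.2, 19.7 and 12.7 CPM with vehicle and 7.83, 12.1 and 8.96 CPM with MJ041 in KO. The other endothelial markers, Stab1, Stab2, Clec4g, Kdr, Flt1, Erg, Egfl7, Fcgr2b and the secreted nuclease Dnase1l3, ranged from -0.67 for Dnase1l3 to 0.58 for Stab2, a scavenger receptor for hyaluronan.

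Among stellate markers 2 rose and 2 fell. Reln, the secreted glycoprotein reelin, stood at 7.54, 13.3 and 13.1 CPM with vehicle and 18.02, 15.3 and 14.9 CPM with MJ041 in WT, and at 18.6, 52.1 and 44.1 CPM with vehicle and 31.3, 14.8 and 23.9 CPM with MJ041 in KO. It rose by 1.76 ± 0.36 (SE, adjusted p = 0.0011) with vehicle. Angptl6, an angiopoietin-like secreted factor, stood at 4.49, 6.54 and 4.80 CPM with vehicle and 6.66, 7.90 and 7.56 CPM with MJ041 in WT, and at 13.5, 8.13 and 10.02 CPM with vehicle and 10.8, 7.25 and 9.50 CPM with MJ041 in KO. It also rose, by 0.99 ± 0.21 (SE, adjusted p = 0.0013). Both calls passed with any 1 library left out (adjusted p at most 0.0068 and 0.0085). These are the 2 stellate markers whose levels ran against the rest of their class in WT.

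Dcn and Pdgfrb went the other way. Dcn, the matrix proteoglycan decorin, stood at 34.1, 19.5 and 38.99 CPM with vehicle and 3.997, 4.89 and 21.2 CPM with MJ041 in WT, and at 9.62, 14.6 and 11.5 CPM with vehicle and 9.62, 13.00 and 12.6 CPM with MJ041 in KO. All 3 KO vehicle libraries lay below the WT vehicle libraries, and the log2 fold change was -1.38 ± 0.45 (SE, adjusted p = 0.02). Pdgfrb, the PDGF receptor of stellate cells and pericytes, stood at 2.94, 2.91 and 2.79 CPM with vehicle and 0.348, 0.589 and 2.32 CPM with MJ041 in WT, and at 0.583, 1.04 and 1.37 CPM with vehicle and 0.657, 1.67 and 0.831 CPM with MJ041 in KO, and its log2 fold change was -1.53 ± 0.51 (SE, adjusted p = 0.022). Neither call passed without KO vehicle replicate 1 (highest adjusted p over the 12 fits 0.069 for Dcn and 0.080 for Pdgfrb), and that of Dcn was also lost without KO vehicle replicate 3, WT vehicle replicate 1 or WT vehicle replicate 3. KO vehicle replicate 1 had the lowest endothelial and stellate sums of the 6 KO libraries. Ecm1, Cxcl12, Pdgfra and Rgs5 had log2 fold changes of -0.15, 0.10, -0.40 and -0.81 and did not pass.

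**Figure D5:**
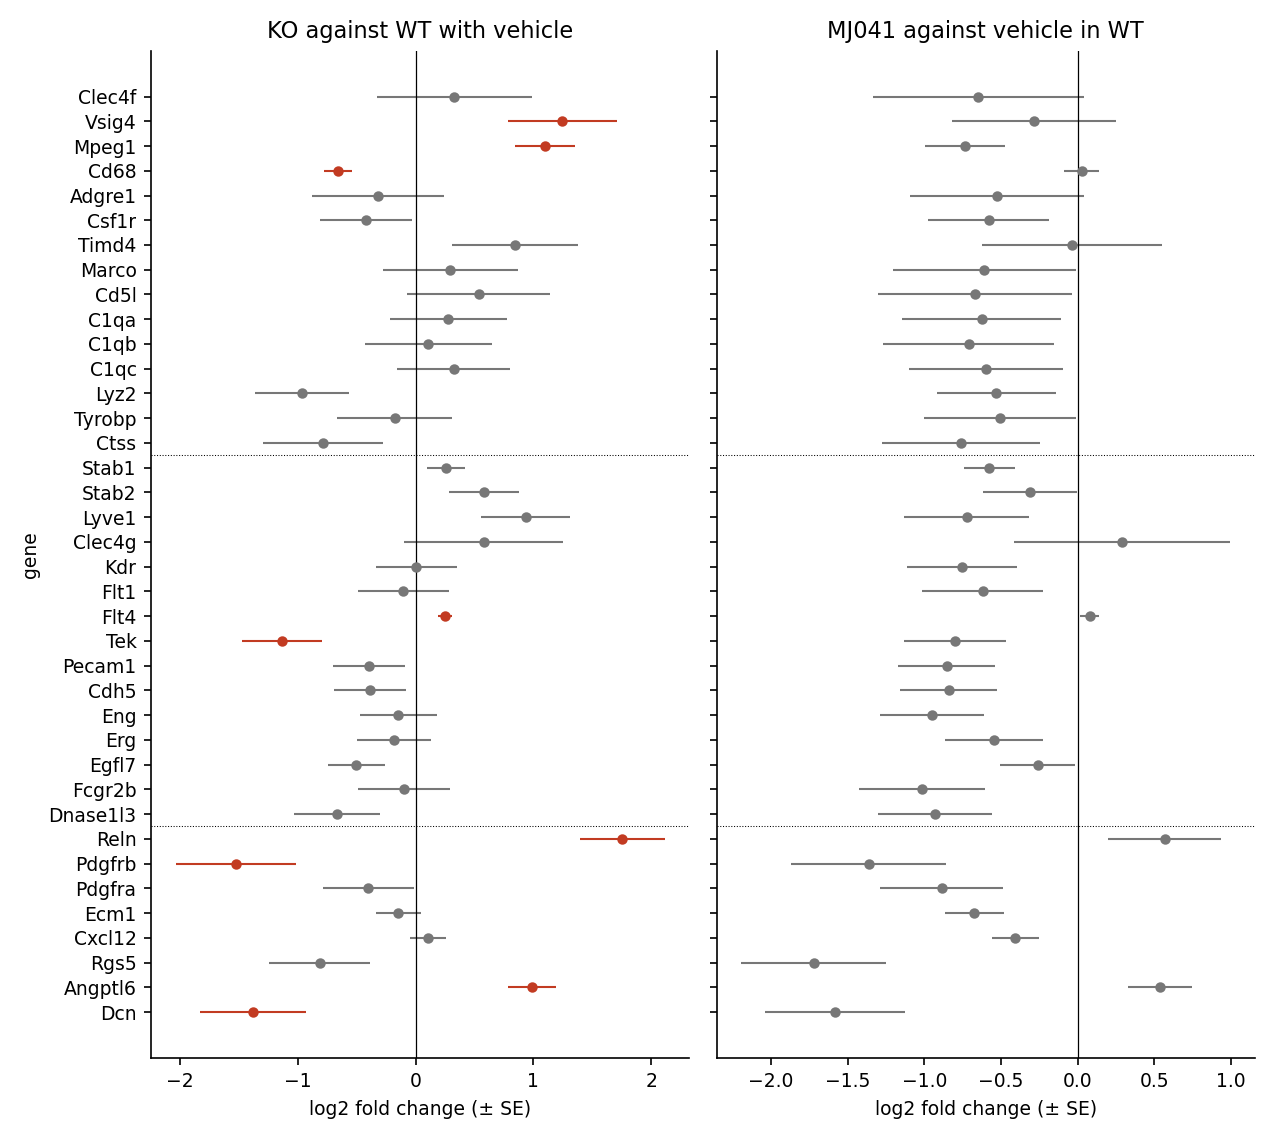
log2 fold change ± SE of each tested marker for KO against WT with vehicle (left) and for MJ041 against vehicle in WT (right), from the fit across all genes. Red points passed an adjusted p of 0.05; on the left 9 of 38 did, on the right 0, although 33 of 38 estimates there lie below 0.

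The series set out to describe gene induction by MJ041, which in WT is the comparison of MJ041 with vehicle. No marker passed, although nearly all estimates were negative. With edgeR 0 of 38 markers were called (15 at an unadjusted p below 0.05), where 2.21% of all tested genes were called (3219 genes at an unadjusted p below 0.05). DESeq2 called 3 markers as lower (Ecm1, Rgs5 and Stab1) and 5.99% of tested genes, and limma voom called 2 (Dcn and Rgs5) and 2.69%. With a replicate block edgeR called 4 as lower (Dcn, Ecm1, Rgs5 and Stab1), beside 649 of all 14919 tested genes. The log2 fold change was below 0 for 33 of 38 markers, with medians of -0.60 for Kupffer, -0.72 for endothelial and -0.78 for stellate markers, and 0.03 for all tested genes. The 5 estimates above 0 were those of Cd68, Flt4, Clec4g, Reln and Angptl6, which are also the 5 genes with the lowest correlation to their class in WT. Both measures use the same 6 WT libraries, so this match is not a second, independent observation.

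The size of these differences depended on single libraries of the treated group. Without WT MJ041 replicate 3, 24 of 38 markers were called, all of them lower, against 13.5% of tested genes, and the medians became -1.60, -1.28 and -1.25. Without WT MJ041 replicates 1 and 2, a fit in which 1 treated WT library remains and takes its spread from the other groups, the medians were 0.39, -0.08 and -0.06. Without WT vehicle replicate 2 only Ecm1 of the markers passed, beside 574 of all 15227 tested genes. Without WT vehicle replicate 3 no marker passed, beside 31 of all 15168 tested genes, and the medians were -0.05, -0.42 and -0.59. The share of the 12 hepatocyte genes was 7.05, 6.31 and 5.86% in the treated WT libraries and 5.75, 6.22 and 5.76% with vehicle, and its part in these differences was not tested.

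The 3 treated WT libraries lay wholly below vehicle for 3 markers, where 13.3% of tested genes did so, and wholly above for 2, where 8.80% did so. All 5 were stellate markers. Rgs5, a regulator of G-protein signalling that marks pericytes, stood at 2.25, 1.96 and 3.07 CPM with vehicle and 0.406, 0.177 and 1.55 CPM with MJ041 in WT, and at 1.11, 1.79 and 1.25 CPM with vehicle and 2.15, 2.01 and 2.43 CPM with MJ041 in KO. In WT its log2 fold change with MJ041 was -1.72 ± 0.47 (SE, adjusted p = 0.071), the smallest adjusted p of the 38 markers. Cxcl12, a chemokine made by stroma, stood at 39.6, 37.5 and 38.5 CPM with vehicle and 20.6, 26.7 and 36.95 CPM with MJ041 in WT, and at 36.9, 44.2 and 43.4 CPM with vehicle and 37.7, 50.04 and 46.6 CPM with MJ041 in KO. Its log2 fold change was -0.41 ± 0.16 (SE, adjusted p = 0.16), with replicate 3 just below the vehicle libraries. Pdgfrb, given above, was the other, with -1.36 ± 0.51 (SE, adjusted p = 0.15). Reln and Angptl6 were the 2 above vehicle, at 0.57 ± 0.37 (SE, adjusted p = 0.41) and 0.54 ± 0.21 (SE, adjusted p = 0.16).

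For MJ041 in WT, the 2 next smallest adjusted p-values belonged to Ecm1 and Stab1. Ecm1 stood at 76.7, 55.2 and 80.4 CPM with vehicle and 33.7, 37.9 and 56.8 CPM with MJ041 in WT, and at 54.99, 71.5 and 65.8 CPM with vehicle and 51.4, 76.4 and 65.1 CPM with MJ041 in KO. Its log2 fold change with MJ041 in WT was -0.67 ± 0.19 (SE, adjusted p = 0.079). Stab1, a scavenger receptor of sinusoidal endothelium, stood at 48.03, 41.5 and 57.4 CPM with vehicle and 28.1, 23.9 and 43.1 CPM with MJ041 in WT, and at 52.8, 61.4 and 61.95 CPM with vehicle and 55.7, 58.6 and 52.95 CPM with MJ041 in KO, with -0.57 ± 0.16 (SE, adjusted p = 0.08). In both genes replicate 3 of the treated group overlapped the vehicle libraries, and replicates 1 and 2 lay below them. Dcn had a larger estimate with a larger error, -1.58 ± 0.46 (SE, adjusted p = 0.083). Mpeg1 had -0.73 ± 0.26 (SE, adjusted p = 0.13) and was the Kupffer marker with the smallest adjusted p.

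In KO the markers gave no call with MJ041. With edgeR 0 of 38 passed and 0 had an unadjusted p below 0.05, with 0% of all tested genes called (414 at an unadjusted p below 0.05). DESeq2 also called 0 markers, with 0.00670% of tested genes, and limma voom called 0 markers. Median log2 fold changes were 0.20 for Kupffer, -0.03 for endothelial and 0.04 for stellate markers. Over the fits that left out 1 library they ranged from 0.05 to 0.23, from -0.16 to 0.18 and from -0.09 to 0.22. Mpeg1 differed by 0.00 ± 0.25 (SE) and Cd68 by -0.06 ± 0.12 (SE). The estimate furthest from 0 was that of Timd4, -0.77 ± 0.53 (SE, adjusted p = 1), followed by Reln, -0.72 ± 0.34 (SE, adjusted p = 1).

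The difference between the 2 responses was tested as an interaction. With edgeR 0 of 38 markers passed (7 at an unadjusted p below 0.05) and 0% of all tested genes (1980 at an unadjusted p below 0.05). DESeq2 called 0 markers and 1.46% of tested genes, and limma voom called 0 markers (11 at an unadjusted p below 0.05). The medians of the response in KO minus that in WT were 0.74 for Kupffer, 0.50 for endothelial and 0.87 for stellate markers. Without WT MJ041 replicate 3, 12 markers passed, all above 0, against 5.60% of tested genes. Without WT MJ041 replicates 1 and 2, which leaves 1 treated WT library, the medians were -0.19, 0.01 and 0.21. The genotypes were therefore not shown to respond differently in these genes.

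The comparison of KO with WT under MJ041 uses the same treated WT libraries. Of 38 markers 9 were called as higher and 1 as lower in KO, while 54.4% of all tested genes were called, 26.8% higher and 27.6% lower. The higher genes were Vsig4, Mpeg1 and C1qc of Kupffer cells, Stab1, Stab2 and Lyve1 of endothelium and Ecm1, Cxcl12 and Rgs5 of stellate cells. Cd68 was the lower one. Mpeg1 differed by 1.83 ± 0.26 (SE, adjusted p = 6.7e-05), Vsig4 by 1.97 ± 0.47 (SE, adjusted p = 0.0032) and Cd68 by -0.75 ± 0.12 (SE, adjusted p = 0.00014). Stab2 stood at 9.04, 11.1 and 18.9 CPM with vehicle and 7.18, 9.13 and 14.04 CPM with MJ041 in WT, and at 12.7, 24.98 and 20.8 CPM with vehicle and 23.5, 17.8 and 21.1 CPM with MJ041 in KO, and its log2 fold change was 0.98 ± 0.30 (SE, adjusted p = 0.014). Median log2 fold changes were 0.88 for Kupffer, 0.42 for endothelial and 0.50 for stellate markers. Leaving out 1 library at a time moved them between 0.38 and 1.88, between 0.20 and 0.90 and between 0.35 and 0.95, highest in each class without WT MJ041 replicate 3.

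Some of these calls depended on the low treated WT libraries. Rgs5, Stab2, Ecm1, Lyve1 and C1qc passed neither without WT MJ041 replicate 1 nor without WT MJ041 replicate 2. Without WT MJ041 replicates 1 and 2, 3 markers were called, Mpeg1 as higher and Cd68 and Lyz2 as lower, against 40.3% of tested genes, and the Kupffer median was -0.11. Leaving out 1 library at a time gave 5 calls without WT MJ041 replicate 1, 5 without replicate 2 and 27 without replicate 3. Of all genes, 7508 of 15235, 7605 of 15224 and 8100 of 15201 tested were called in the same fits. Mpeg1, Cd68, Vsig4, Stab1 and Cxcl12 passed in all 12 of those fits, Rgs5 in 10, Stab2 in 9, Ecm1 in 7, Lyve1 in 4 and C1qc in 3. Mpeg1 and Cd68 were thus the only 2 markers that passed in all 12 fits of both comparisons of genotype.

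Further genes of the same cell types were read from lists of other names. Of 28 other macrophage genes 25 were tested, and with vehicle 2 rose and 3 fell in KO, where 54.5% of all tested genes were called. Their estimates were below 0 for 18 of 25, with a median of -0.45. Cd14, the endotoxin co-receptor, fell in KO with a log2 fold change of -1.51 ± 0.12 (SE, adjusted p = 4.2e-07). Lcp1, the actin-bundling protein plastin-2, rose by 1.37 ± 0.16 (SE, adjusted p = 1.4e-05), and Slc40a1, the iron exporter ferroportin, rose by 0.77 ± 0.10 (SE, adjusted p = 4.1e-05). With MJ041 in WT, Lgals3, the lectin galectin-3, rose by 0.54 ± 0.11 (SE, adjusted p = 0.036) and was the 1 gene of this list called, where 2.21% of all tested genes were. Of the 25 estimates with MJ041 in WT 21 were below 0, with a median of -0.71. The mean over all 12 libraries was 195 CPM for Cd14, 176 CPM for Lcp1, 130.5 CPM for Slc40a1 and 240.5 CPM for Lgals3. In WT MJ041 replicate 1, where most Kupffer markers were lowest, these genes stood at 256, 130.5, 115 and 268 CPM. Ptprc, Spi1 and Fcgr1 of the same list had their lowest values there, 0.985, 0.811 and 0.811 CPM. The cells that gave the RNA of the named genes were not tested, so no change of macrophages is read from them. The same limit holds for the markers called above and their cell types.

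Of 28 other endothelial genes 26 were tested, and 4 fell and 0 rose in KO with vehicle, with 20 of 26 estimates below 0 and a median of -0.33. Of all tested genes 26.9% were called lower and 27.5% higher, so these calls were not more frequent than over all genes. Rspo3, an enhancer of WNT signalling made by central vein endothelium, had -1.91 ± 0.36 (SE, adjusted p = 0.00059). Cd34, a surface sialomucin, had -1.44 ± 0.35 (SE, adjusted p = 0.0037) and Sox17, an endothelial transcription factor, had -1.11 ± 0.30 (SE, adjusted p = 0.0064). Rspo3 was also the 1 gene of this list called with MJ041 in WT, at -1.68 ± 0.35 (SE, adjusted p = 0.039), where 2.21% of all tested genes were. Of the 26 estimates there 25 were below 0, with a median of -0.85. Of 30 other stellate and fibroblast genes 21 were tested, and 6 rose and 6 fell in KO with vehicle, beside the same shares of all tested genes. Of their 21 estimates 12 were below 0, with a median of -0.39. Nt5e, the ecto-nucleotidase CD73, fell with -1.16 ± 0.06 (SE, adjusted p = 5.1e-09) and Prelp, a matrix proteoglycan, rose by 1.64 ± 0.15 (SE, adjusted p = 1.8e-06). With MJ041 in WT only Prelp of this list was called, at -0.84 ± 0.17 (SE, adjusted p = 0.038), beside 2.21% of all tested genes. There 14 of 21 estimates were below 0, with a median of -0.29.

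The ligands that act on these cells were read in the same way. Of 13 PDGF, VEGF, angiopoietin and CSF1 family ligands 11 were tested, and 3 rose and 5 fell in KO with vehicle, beside 27.5% of all tested genes higher and 26.9% lower. Pdgfc rose by 1.72 ± 0.13 (SE, adjusted p = 4.5e-07). Pgf, placental growth factor, fell with -2.67 ± 0.25 (SE, adjusted p = 1.8e-06), and Pdgfa fell with -0.77 ± 0.10 (SE, adjusted p = 4.4e-05). With MJ041 in WT, Pdgfb was the 1 called, at -0.52 ± 0.12 (SE, adjusted p = 0.045), beside 2.21% of all tested genes. In KO, edgeR called 0 genes of these 4 lists with MJ041 (2 stellate and fibroblast genes and 1 ligand at an unadjusted p below 0.05).

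Genes outside the list whose pattern over the 6 WT libraries was most like each class were named by rank of r among the 10539 tested genes that averaged 5 CPM or more. For Kupffer markers the first 10 were Tmem86a (r = 0.999), Tpst2, Hk3, Ckb, Rnf31, Cdc26, Fcgr1, Siglec1, Iws1 and Cd74 (0.990). Hk3, Fcgr1, Siglec1 and Cd74 encode a hexokinase of myeloid cells, an Fc receptor, a macrophage lectin and the invariant chain of MHC class II. For endothelial markers they included 1810020O05Rik (0.998), Csf2rb2, Inhbb, Wdr91, Igsf3, Ifi206, Fam193b, Cerk and Map4k5 (0.993). For stellate markers they were Fxyd5 (0.998), Cmtm3, Igfbp7, Efnb2, Zfp948, Arap3, Dse, Ckap4, Ednrb and Sparc (0.993). Over only 6 libraries many genes reach high values of r, so the ranks describe these libraries only.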

How the data were processed

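The members and all gene lists were chosen with earlier results of these data known. Per the labels' protocols, total RNA was sequenced after stranded library preparation. The authors deposited 1 table of raw gene counts of the 12 libraries. Per the submitters' processing notes, STAR 2.7.10b, featureCounts, Trimmomatic 0.34, FastQC and DESeq2 were used with the build mm39. The handling of strand and shared reads was not given in the sources used here. Totals of 16740761 to 17902832 counts per library make counting error small for abundant markers and large for the rarest ones. None of the 12 pairs of libraries within a group agreed within sampling noise, and pairs across groups were not compared.

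From the deposited counts, edgeR 4.0.16 (R 4.3.3) fitted 1 coefficient per group over all 12 libraries with TMM scaling (factors 0.938 to 1.02) and filterByExpr (minimum count 10). Its quasi-likelihood test was adjusted by Benjamini-Hochberg over 14919 genes at 0.05, and the SE is the absolute log2 fold change over the square root of F. CPM used total counts, RPKM used merged exon length of GENCODE on GRCm38, and correlations used log2 CPM with a prior count of 2. The fit was tested on simulated data. Members named with every library were those called in any comparison, the 5 with the highest mean CPM per class and those not overlapping between the WT groups. C1qb was added after its values were seen, as a partner of C1qc. Of each other list the 3 called genes with the smallest adjusted p were eligible. Some genes that these rules select are not reported here. Alternatives were DESeq2 1.42.0, limma 3.58.1 voom, DESeq2 size factors, no filter, only the groups compared, a replicate block and left-out libraries.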

Additional observations from a re-analysis of the deposited data

Results flagged for a closer look

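Rgs5, the pericyte marker, had estimates of opposite sign with MJ041 in the 2 genotypes. In WT its log2 fold change was -1.72 ± 0.47 (SE), with all 3 treated libraries below all 3 vehicle libraries. In KO it was 0.66 ± 0.43 (SE), with all 3 treated libraries above all 3 vehicle libraries. The interaction, 2.39 ± 0.64 (SE), had an unadjusted p of 0.0027 and an adjusted p of 0.17 by edgeR's quasi-likelihood test, so it did not pass. Rgs5 had 3 to 55 counts in a library, and its 2 lowest values were in WT MJ041 replicates 1 and 2, the libraries with the lowest summed share of all markers. The part of these libraries in the difference was not tested beyond the fits without them.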

How the results depend on the processing

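The number of markers called depended most on the filter and on the treated WT libraries. Without a filter on low counts all 42 markers were tested. The calls were 20 for KO against WT with vehicle, 19 for MJ041 in WT, 1 for MJ041 in KO, 13 for the interaction and 21 for KO against WT with MJ041. In the same order 8335, 1667, 15, 886 and 8149 of all 30185 tested genes were called. For MJ041 in WT, DESeq2 gave 3 and limma voom 2, beside 894 and 402 of all 14919 tested genes. For KO against WT with MJ041 voom gave 16, beside 8121 of all 14919. Leaving out 1 library at a time gave 6 to 14, 0 to 24, 0 to 0, 0 to 12 and 5 to 27 calls in the same 5 comparisons. Of all 15168 to 15235 genes tested in these fits, 7389 to 8495, 0 to 2059, 0 to 0, 0 to 852 and 7321 to 8216 were called. For KO against WT with MJ041, the fit without WT MJ041 replicates 1 and 2 together left 1 treated WT library, so its count is not read here. With a replicate block the calls were 12, 4, 0, 0 and 18, beside 8318, 649, 0, 0 and 8287 of all 14919 tested genes. Pairing by replicate number was neither shown nor excluded. Within WT, same-numbered libraries correlated in their deviations from the group means by r = -0.0103, 0.203 and 0.499. In KO these values were 0.349, 0.458 and 0.039. Differently numbered libraries gave -0.53 to 0.445 in WT and -0.436 to 0.111 in KO. The other 76 counts were within 1.5 times the main count. Fold changes were followed only for markers called in the main fit, all of them in the 2 comparisons of genotype. Of these, 305 kept their direction and their side of the threshold, 56 kept the direction and lost the call, and 0 reversed. Because they were chosen by their call, few reversals could occur. The fold changes of uncalled markers, and those with MJ041, were not counted in this way. The fit of only the groups compared was not possible for the interaction, which needs all 4. The cause of these differences was not tested. Depth was not varied; the 4 untested stellate markers had 18 to 94 counts over all 12 libraries.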

Other observations

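Genes of bile duct cells, another liver cell type, were called by genotype in both directions. Of 12 cholangiocyte genes 10 were tested, and with vehicle 6 rose and 2 fell in KO by edgeR, where 54.5% of all tested genes were called, 27.5% higher and 26.9% lower. Krt19, a keratin of ducts, rose by 3.27 ± 0.13 (SE, adjusted p = 9.1e-10), Bicc1, an RNA-binding protein, by 2.66 ± 0.20 (SE, adjusted p = 3.7e-07) and Tspan8, a tetraspanin, by 5.17 ± 0.43 (SE, adjusted p = 7.1e-07). Of the 10 estimates 4 were below 0. With vehicle the mean went from 6.54 CPM in WT to 0.577 CPM in KO for Krt23, and from 46.9 to 28.4 CPM for Sox9. The summed share of the 12 genes was 0.0426 to 0.0644% in WT with vehicle and 0.0606 to 0.0746% in KO with vehicle, so the sums of the groups overlapped. Without Spp1, the gene of this list with the most counts, the sum was 0.0165 to 0.0203% in WT with vehicle and 0.0418 to 0.0446% in KO with vehicle, which did not overlap. Cldn4 then had the most counts, with a mean of 77.5 CPM in WT and 191 CPM in KO with vehicle. With MJ041 in WT, Cldn4, a claudin, was the 1 gene of this list called, at 1.16 ± 0.19 (SE, adjusted p = 0.029), beside 2.21% of all tested genes.

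Of the 12 hepatocyte genes 1 rose and 7 fell in KO with vehicle, beside the same shares of all tested genes. Ttr, transthyretin, fell with -1.86 ± 0.10 (SE, adjusted p = 1.8e-08), Hpd, an enzyme of tyrosine breakdown, with -1.88 ± 0.13 (SE, adjusted p = 1.3e-07) and Asgr1, a subunit of the asialoglycoprotein receptor, with -2.16 ± 0.18 (SE, adjusted p = 8.6e-07). The share of the 12 genes with MJ041 was 5.86 to 7.05% in WT and 2.81 to 2.88% in KO. Of the 6 mesothelial genes 1 was tested, Msln, which rose in KO by 1.36 ± 0.49 (SE, adjusted p = 0.031). Of the 7 erythroid genes 1 was tested, Alas2, the first enzyme of haem synthesis in red cells, which fell with -5.63 ± 0.52 (SE, adjusted p = 1.8e-06). The globin genes Hba-a1, Hba-a2, Hbb-bs and Hbb-bt had 9, 2, 21 and 0 counts over all 12 libraries. The cells that gave the Alas2 RNA were not tested. Of the 21 lymphocyte and neutrophil genes 3 were tested and edgeR called 0 in any comparison (0 at an unadjusted p below 0.05), and Csf3r and Cd79b, the 2 highest, had a mean of 1.34 and 0.986 CPM over all 12 libraries.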
